A study of Rattus norvegicus with 10 samples.

Results

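The 9 genes that encode the AMPA receptor subunits (Gria1, Gria2, Gria3 and Gria4) and the kainate receptor subunits (Grik1, Grik2, Grik3, Grik4 and Grik5) were examined in the medial prefrontal cortex (mPFC) of 10 rats. The members were the rows of each rat's table that carry these gene names, 9 of 22081 genes, and all 9 passed the filter on low counts. All animals were male, outbred Sprague-Dawley rats that had self-administered cocaine (0.75 mg/kg per infusion), had been withdrawn from it and were killed on experimental day 27, so no drug-naive group belongs to the comparison. The high cue (HC) rats pressed the lever for the drug-paired cue more often than the median rat, and the low cue (LC) rats less often, with 5 rats per phenotype. The names of the deposited tables further mark HC rats 9, 10 and 11 and LC rats 12, 13 and 14 as Cue, and HC rats 15 and 16 and LC rats 2 and 4 as NoCue. The sample labels do not state this mark, and the 6 Cue rats match in number the subset given a second cue test on the last day. RNA came from a homogenate of the infralimbic, prelimbic and anterior cingulate cortex, so fewer cells of a type and less RNA per cell cannot be told apart.

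AMPA and kainate receptors are glutamate-gated cation channels, each built from 4 subunits. AMPA receptors carry most fast excitatory transmission between cortical neurons, and the GluA2 subunit, encoded by Gria2, makes the channel nearly impermeable to calcium once its transcript has been edited. GluK1, GluK2 and GluK3, encoded by Grik1, Grik2 and Grik3, can form kainate receptors by themselves, whereas GluK4 and GluK5, encoded by Grik4 and Grik5, need one of those 3 as a partner. Changes in AMPA receptor subunit make-up are widely studied in cocaine seeking.

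The libraries held 11296517 to 26664008 exon reads, of which 18585 to 40798 fell on the 9 members. LC rat 2, a NoCue rat, stood apart: 28.4% of its exon reads were mitochondrial against 7.65% to 12.0% in the other 9 rats, and its TMM scaling factor was 0.77. Its summed TPM over 7 cortical excitatory neuron markers was 737, against 1471 to 1870 in the others, and it was also the lowest rat for markers of astrocytes (620 TPM against 929 to 1364), oligodendrocytes (425 against 790 to 1403), oligodendrocyte precursors (35.2 against 102 to 142), microglia (64.8 against 102 to 123), endothelium (25.2 against 46.3 to 89.5) and striatal projection neurons (214 against 251 to 652). Its 5 interneuron markers summed to 797 TPM, against 724 to 854, and its choroid plexus markers also lay within the range of the others. LC rat 4, also a NoCue rat, had the 652 TPM over 8 markers of striatal projection neurons, against 214 to 306 in all other rats. No marker of the 9 cell type lists was at 0 in all rats, and the 4 choroid plexus markers summed to 1.7 to 11.6 TPM. The part of these differences in the results on the subunits was not tested, and results are therefore given with and without LC rat 2.

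The genes lie on separate chromosomes apart from Gria4 and Grik4, which share chromosome 8. In the Rnor_6.0 build, Gria1 spans chr10:42614713-42760200 on the plus strand, Gria2 chr2:179584308-179704629 on the minus strand, Gria3 chrX:127562660-127829753 on the plus strand and Gria4 chr8:1548146-2045817 on the minus strand. Grik1 spans chr11:27811957-27971359, Grik2 chr20:53789760-54517709, Grik4 chr8:46806147-47094352 and Grik5 chr1:81885521-81946714, all on the minus strand, and Grik3 spans chr5:143500441-143715546 on the plus strand. All 9 are protein-coding genes. Grik4 alone overlaps another gene model, which had at most 2 exon reads in any rat.

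RefSeq promoter windows were matched for 6 of the 9 members (Gria4 and Grik1 to Grik5; GRCr8 build). The windows of Grik3, Grik4 and Grik5 are shown because these kainate subunit genes varied most between rats or were lowest in LC rat 2. Each is the 150 bases before the annotated start, read 5′ to 3′ along the gene, with GC boxes (GGGCGG, or CCGCCC on the other strand) in capitals.
Grik3, chr5:143052292-143052441, plus strand: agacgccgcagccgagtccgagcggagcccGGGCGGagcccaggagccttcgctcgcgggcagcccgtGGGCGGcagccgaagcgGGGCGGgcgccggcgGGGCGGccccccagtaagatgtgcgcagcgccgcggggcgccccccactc
Grik4, chr8:52102064-52102213, minus strand: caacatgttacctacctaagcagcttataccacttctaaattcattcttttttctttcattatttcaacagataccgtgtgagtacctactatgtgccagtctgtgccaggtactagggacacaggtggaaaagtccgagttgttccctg
Grik5, chr1:89794910-89795059, minus strand: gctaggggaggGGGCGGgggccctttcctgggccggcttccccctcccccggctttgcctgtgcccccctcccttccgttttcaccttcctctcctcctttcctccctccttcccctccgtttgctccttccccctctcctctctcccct
The Grik3 window held 4 GC boxes and was 81.3% G and C, the Grik5 window held 1 and was 68% G and C, and the Grik4 window held 0 and was 42% G and C. Of 33469 RefSeq promoter windows of this length, 26.0% held at least 1 GC box and the median G and C content was 52.7%. The annotated start need not be the start used in the mPFC.

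Levels between genes were compared in TPM, a measure of transcripts that takes exon length and library total into account. Gria2 was the most abundant AMPA subunit transcript. It had 173, 215, 204, 148 and 187 TPM in HC rats 9, 10, 11, 15 and 16, against 200, 160, 185, 150 and 185 TPM in LC rats 12, 13, 14, 2 and 4. Gria2 exceeded Gria1 in every rat, since the Gria1 to Gria2 TPM ratio ran between 0.64 and 0.97.

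Gria1, which encodes GluA1, the subunit whose insertion into synapses accompanies potentiation, had 140, 163, 174, 143 and 126 TPM in the HC rats in the same order, against 135, 118, 152, 95.5 and 146 TPM in the LC rats. Its lowest TPM belonged to LC rat 2, and the 2 phenotypes overlapped. In CPM, the count scaled to library size by the TMM method, LC rat 2 had the highest Gria1 value at 227. Gria3, which encodes GluA3, averaged 145 ± 10.7 TPM in HC rats and 134 ± 12.3 TPM in LC rats (SD, n = 5 each). The Gria1 and Gria3 levels did not separate beyond their spread. Gria4, which encodes GluA4 and in adult cortex is found mainly in some interneurons, was the scarcest AMPA subunit transcript at 38.1 ± 4.05 TPM in HC rats and 36.5 ± 1.80 TPM in LC rats (SD, n = 5 each).

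Among the kainate subunits Grik5, which encodes the GluK5 partner subunit, was the most abundant. It had 151, 139, 151, 156 and 129 TPM in HC rats 9, 10, 11, 15 and 16, against 134, 140, 144, 40.8 and 115 TPM in LC rats 12, 13, 14, 2 and 4. LC rat 2 lay far below all other rats, and without it the LC mean was 133 ± 12.8 TPM (SD, n = 4).

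Grik4, which encodes the other partner subunit GluK4, had 26.8, 25.8, 26.3, 28.8 and 23.8 TPM in the HC rats in the same order, against 22.3, 22.1, 24.9, 8.69 and 22.4 TPM in the LC rats. Only LC rat 14 reached into the HC range. Without LC rat 2 the LC mean was 22.9 ± 1.29 TPM (SD, n = 4), against 26.3 ± 1.81 TPM in HC rats (SD, n = 5).

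Grik3, which encodes GluK3, had 39.6, 41.8, 42.8, 33.3 and 18.9 TPM in the HC rats, against 34.2, 23.9, 36.2, 18.8 and 26.7 TPM in the LC rats. It was the most variable member: its SD of log2 CPM within phenotype was 0.36, and 0.38 without LC rat 2. With all rats Grik5 (0.31) and Gria4 (0.30) came near it. Without LC rat 2 the other members ran from 0.078 for Grik4 and 0.089 for Grik5 to 0.20 for Gria2. In TPM of Grik3, HC rat 16 was the lowest HC rat by a wide gap and close to LC rat 2. In CPM it had 33.3, against 54.6 in LC rat 2.

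Grik2, which encodes GluK2, averaged 25.2 ± 1.58 TPM in HC rats and 23.4 ± 2.12 TPM in LC rats (SD, n = 5 each). Grik1, which encodes GluK1 and in cortex marks mainly interneurons, was the scarcest member at 7.37 ± 0.79 TPM in HC rats and 6.50 ± 1.14 TPM in LC rats, from 122 to 259 exon reads per rat. In order of level the kainate subunits were Grik5 first and Grik1 last, with Grik3, Grik4 and Grik2 between them in overlapping ranges. The mean of Grik4 was above that of Grik2 in HC rats and below it in LC rats.

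**Figure D1:**
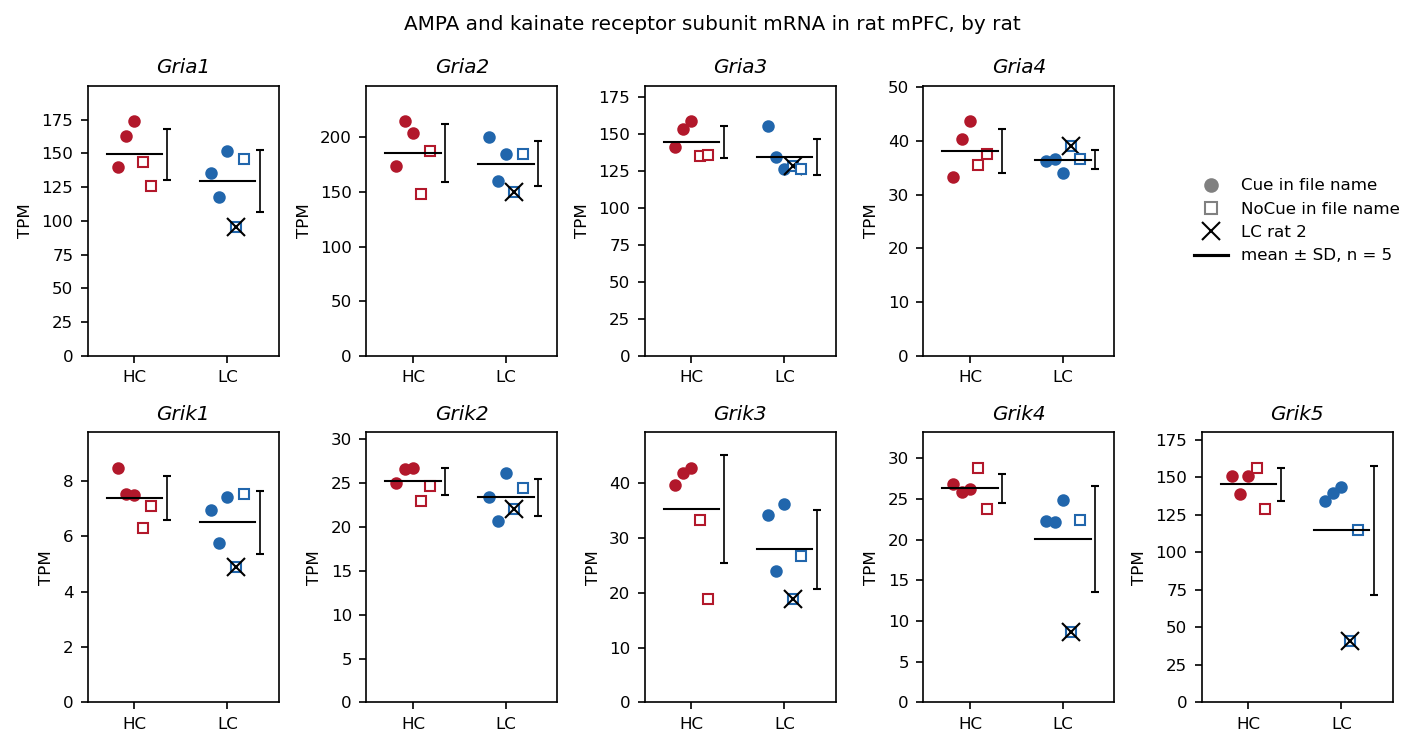
TPM of each subunit gene by rat, HC left of LC; filled circles are Cue rats, open squares NoCue rats, the cross marks LC rat 2, and lines with bars give the mean and SD of 5 rats. Grik5 and Grik4 are lowest in LC rat 2, at 40.8 and 8.69 TPM, and Grik3 is the most scattered gene.

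The share of each subunit within its family does not depend on how a library is scaled. Of the AMPA subunit TPM, Gria2 took 35.8% ± 2.51 in HC rats and 36.9% ± 0.93 in LC rats, Gria1 28.8% ± 1.92 and 27.0% ± 3.02, Gria3 28.0% ± 1.02 and 28.3% ± 2.62, and Gria4 7.37% ± 0.40 and 7.75% ± 1.10 in HC and LC rats (SD, n = 5 each). Of the kainate subunit TPM, Grik5 took 60.8% ± 2.47 in HC rats and 57.7% ± 8.72 in LC rats. Grik3 took 14.5% ± 3.30 and 15.0% ± 3.10, Grik4 11.0% ± 0.61 and 10.3% ± 0.84, Grik2 10.6% ± 1.09 and 13.4% ± 5.56, and Grik1 3.09% ± 0.38 and 3.58% ± 0.95 in HC and LC rats.

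No subunit share passed the test between HC and LC rats: the smallest exact permutation p was 0.14 (two-sided), for Grik4, whose difference was 0.99 percentage points without LC rat 4 (exact permutation p = 0.048). The Gria1 to Gria2 ratio differed by 0.14 on the log2 scale, HC minus LC (exact permutation p = 0.23), and the ratio of Grik4 plus Grik5 to Grik1 plus Grik2 plus Grik3 by 0.24 (exact permutation p = 0.57). The smallest p that 5 rats against 5 allow is 0.0079.

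**Figure D2:**
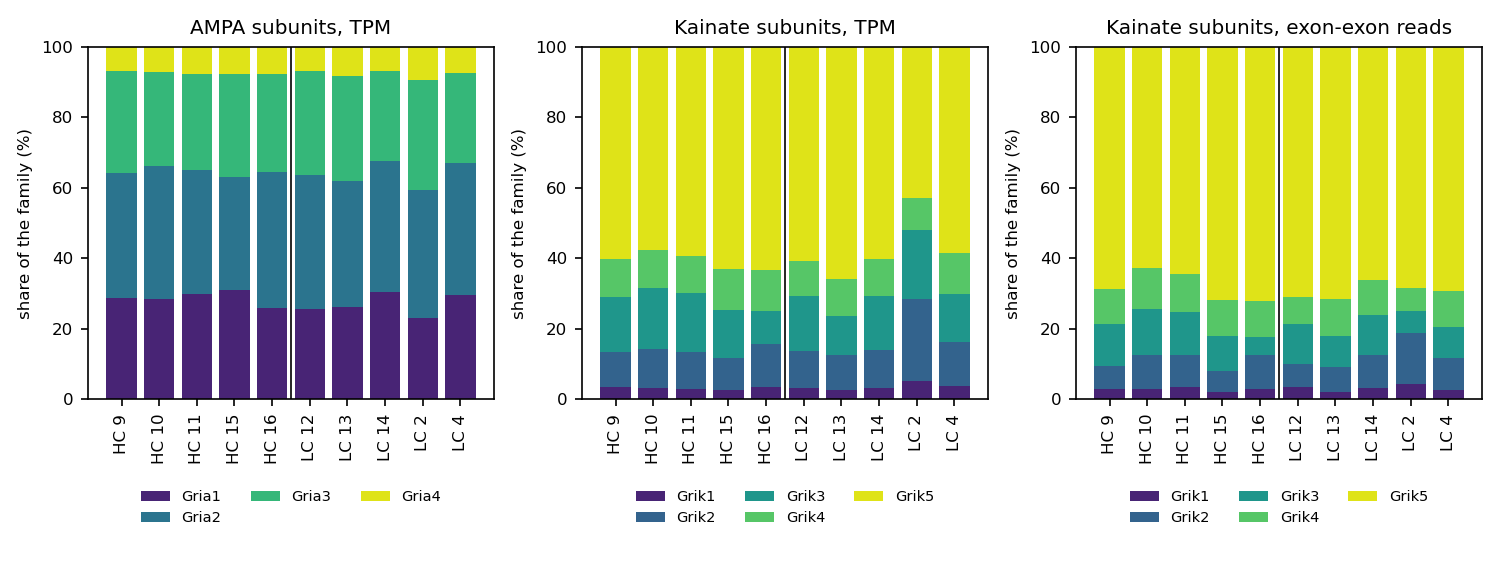
Share of each subunit within its family in each rat, in percent, HC rats left of LC rats; the left and middle panels use TPM and the right panel reads that span exon junctions. LC rat 2 differs from the other rats in the kainate shares by TPM, with Grik5 at 42.8%, but not in its Grik5 share by junction reads, at 68.4%.

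The comparison of HC with LC rats asks whether subunit transcripts accompany heightened cue reactivity. The paper also reports a higher lifetime cocaine intake in HC rats, so cue reactivity and intake cannot be told apart here. By edgeR's quasi-likelihood test 0 of 9 members reached an unadjusted p of 0.05, in either direction, against 1.74% of the 14135 genes tested (0.722% higher and 1.02% lower in HC rats). Without LC rat 2 it was again 0 of 9, against 2.08% of genes. At an adjusted p of 0.05, edgeR called 0 genes, as did DESeq2 and limma-voom, while at an unadjusted p of 0.05 edgeR called 246 genes, DESeq2 301 and limma-voom 182. With all rats, the 4 AMPA subunits had log2 fold changes of HC over LC below 0, and Grik3, Grik4 and Grik5 above 0.

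The log2 fold change of HC over LC was -0.01 ± 0.10 for Gria1, -0.15 ± 0.13 for Gria2, -0.14 ± 0.14 for Gria3 and -0.20 ± 0.17 for Gria4 (SE, edgeR). Without LC rat 2 these values were 0.04 ± 0.09, -0.05 ± 0.11, 0.02 ± 0.07 and 0.01 ± 0.08, so the direction of Gria1, Gria3 and Gria4 turned. Grik1 had -0.03 ± 0.12, Grik2 -0.13 ± 0.14, Grik3 0.13 ± 0.19 and Grik5 0.20 ± 0.16 (SE). Without LC rat 2 these were 0.02 ± 0.11, 0.02 ± 0.08, 0.15 ± 0.20 and 0.06 ± 0.06, so Grik1 and Grik2 turned. On the TPM scale the mean differences of the AMPA subunits, Grik1 and Grik2 were above 0, so no direction can be given for them.

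Grik4 came closest to a difference. Its CPM, the count scaled to library size by the TMM method, was 39.3, 38.9, 37.6, 43.2 and 38.1 in HC rats 9, 10, 11, 15 and 16, against 35.6, 33.9, 38.4, 22.9 and 36.7 in LC rats 12, 13, 14, 2 and 4. All but LC rat 14 lay below the lowest HC rat. The log2 fold change of HC over LC was 0.23 ± 0.12 (SE, adjusted p = 0.885, edgeR).

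In the exact permutation test on log2 CPM, the Grik4 difference was 0.25 (two-sided p = 0.024, all regroupings of 5 against 5), and without LC rat 2 it was 0.12 (exact permutation p = 0.040). Without any 1 of the 5 HC rats it was 0.22 to 0.27, and the exact permutation p no longer passed 0.05 (0.063 without HC rat 11 or 16, 0.079 without HC rat 9 or 10 and 0.095 without HC rat 15). This was the only one of the 9 members with an exact permutation p under 0.05, and the p is not adjusted for the 9. No member had groups that did not overlap in CPM, against 0.439% of the genes tested. With reads over introns counted in, the Grik4 log2 fold change was 0.23 ± 0.08 (SE, adjusted p = 0.919, edgeR), which passed an unadjusted p of 0.05.

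**Figure D3:**
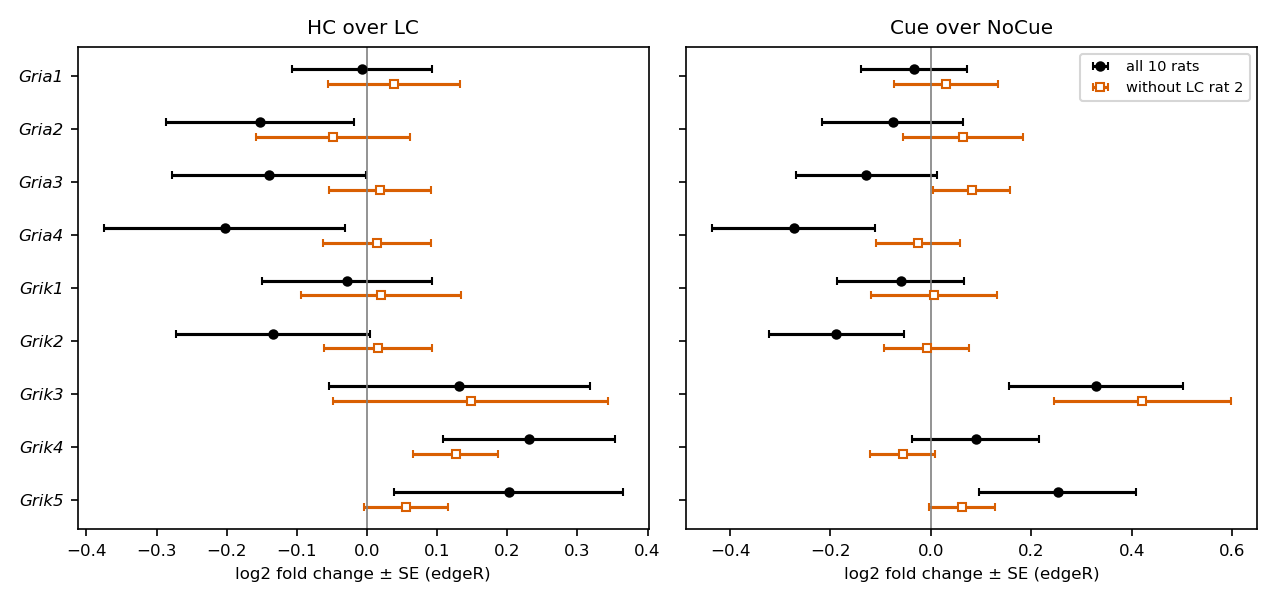
Log2 fold changes with SE from edgeR for the 9 members, HC over LC on the left and Cue over NoCue on the right; black points use all 10 rats and orange squares leave out LC rat 2. Leaving it out moves Gria2, Gria3 and Gria4 towards 0 and Grik4 to 0.13 in HC over LC, and Grik3 to 0.42 in Cue over NoCue.

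The Cue and NoCue rats were compared with phenotype as a second term, which asks whether subunit levels differ with that mark of the table names. Again 0 of 9 members reached an unadjusted p of 0.05, against 9.97% of the genes tested, and no member had groups that did not overlap in CPM, against 2.07%. At an adjusted p of 0.05, edgeR called 0 genes and limma-voom 0, while DESeq2 called 40, none of them members. Without LC rat 2, edgeR called 20 genes at that threshold, none of them members. The largest member difference was that of Grik3.

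Grik3 had 63.9, 69.4, 67.6, 60.0, 40.3 and 61.6 CPM in Cue rats HC 9, HC 10, HC 11, LC 12, LC 13 and LC 14, against 55.1, 33.3, 54.6 and 48.1 CPM in NoCue rats HC 15, HC 16, LC 2 and LC 4. All Cue rats but LC rat 13 lay above all NoCue rats. The log2 fold change of Cue over NoCue was 0.33 ± 0.17 (SE, adjusted p = 0.494, edgeR), and the exact permutation p within phenotype was 0.14 (100 regroupings). On the log2(TPM + 1) scale with all rats the Grik3 difference was 0.57 (exact permutation p = 0.02). On that scale Gria1, Gria2, Gria3, Gria4, Grik1 and Grik2 also turned from lower to higher in Cue rats. LC rat 2, a NoCue rat, had 18.8 TPM of Grik3 but 54.6 CPM.

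The Grik3 difference moved with single rats. It was 0.42 ± 0.18 without LC rat 2 (SE, adjusted p = 0.524, edgeR) and 0.43 ± 0.14 without LC rat 13 (adjusted p = 0.665), both past an unadjusted p of 0.05, and 0.15 ± 0.14 without HC rat 16, which did not pass. Within HC rats it was 0.58 ± 0.18 (adjusted p = 0.609), past an unadjusted p of 0.05, and within LC rats 0.07 ± 0.21 (adjusted p = 0.851). The test of the difference between these gave an interaction of 0.52 ± 0.31 (SE, adjusted p = 0.428, edgeR), so the phenotypes were not shown to differ.

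The other members had log2 fold changes of Cue over NoCue between -0.27 for Gria4 and 0.25 for Grik5. Gria4 rested on LC rat 2, whose 171 CPM exceeded the 80.9 to 104 CPM of the other rats, and without it the value was -0.03 ± 0.08 (SE). Grik5 was 0.062 ± 0.065 (SE) without that rat, and on the log2(TPM + 1) scale with all rats it was 0.53 (exact permutation p = 0.04). LC rat 2 had 40.8 TPM of Grik5, against 115 to 156 TPM in the others. The Grik4 share of kainate TPM was 10.4% ± 0.24 in Cue rats (SD, n = 6) and 11.0% ± 1.24 in NoCue rats (SD, n = 4; exact permutation p = 0.27). Without LC rat 2 the share was 1.12 percentage points lower in Cue than in NoCue rats (exact permutation p = 0.025, the smallest that 40 regroupings allow), 1 of 40 such tests run without that rat.

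Partners of the receptors were taken from 5 lists of 36 genes, of which 34 were matched and tested. Between HC and LC rats 0 of 34 passed an unadjusted p of 0.05 in edgeR. Between Cue and NoCue rats 7 of 34 passed, 3 higher and 4 lower in Cue rats, against 4.36% of genes higher and 5.61% lower. Without LC rat 2, 2 of 34 passed, against 9% of the genes tested.

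The 10 auxiliary subunits ride with AMPA receptors and shape their gating and trafficking. Of these, 3 were lower in Cue rats at an unadjusted p of 0.05 in edgeR, against 5.61% of all genes tested. The list's median log2 fold change was 0.04, against -0.0059 over all genes. Cacng3 (TARP gamma-3) was lower in Cue rats by 0.32 on the log2 scale. It passed an unadjusted p of 0.05 in edgeR with each rat left out in turn. Its CPM were 142, 149, 162, 165, 172 and 137 in Cue rats, against 165, 175, 256 and 181 in NoCue rats HC 15, HC 16, LC 2 and LC 4. The LC rat 2 value was the highest, and without it the log2 fold change was -0.17 ± 0.08 (SE, adjusted p = 0.540, edgeR). The exact permutation p of Cacng3 within phenotype was 0.01 with all rats, the smallest that the regroupings allow, and 0.125 without LC rat 2. Cacng4 and Cacng7, also TARPs, had -0.26 and -0.40 with all rats and -0.09 and -0.15 without LC rat 2, where neither passed. Cnih2, the cornichon that exports AMPA receptors from the endoplasmic reticulum, was the most abundant of the list, with 442 ± 26.4 TPM in HC rats and 380 ± 129 TPM in LC rats (SD, n = 5 each).

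Of 15 genes for assembly and trafficking, 3 were higher and 1 lower in Cue rats at an unadjusted p of 0.05 in edgeR. Of all genes tested, 4.36% were higher and 5.61% lower at that threshold. The list's median log2 fold change was 0.02, with 8 genes above 0 and 7 below. Nptx1 encodes neuronal pentraxin 1, a secreted protein that clusters AMPA receptors. Its CPM were 659, 722, 706, 632, 546 and 671 in Cue rats HC 9, HC 10, HC 11, LC 12, LC 13 and LC 14, against 582, 521, 505 and 568 in NoCue rats HC 15, HC 16, LC 2 and LC 4. All Cue rats but LC rat 13 lay above all NoCue rats.

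The Nptx1 log2 fold change of Cue over NoCue was 0.27 ± 0.08 (SE, adjusted p = 0.494, edgeR), and 0.26 ± 0.08 without LC rat 2 (SE, adjusted p = 0.435). It passed an unadjusted p of 0.05 with each of the 10 rats left out in turn. The exact permutation p within phenotype was 0.03 with all rats and 0.075 without LC rat 2.

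Nptx2, a related pentraxin made after neuronal activity, had 0.39 ± 0.15 with all rats and 0.26 ± 0.13 without LC rat 2 (SE), where it did not pass. Grip2, a scaffold that binds GluA2, had 0.24 ± 0.10 and 0.16 ± 0.09 (SE), and did not pass without LC rat 2. Prrt1 had -0.24 ± 0.10 and -0.10 ± 0.06 (SE), but 1.34% to 8.53% of its exon reads were unique, so its level is uncertain. Nptxr, the membrane-bound pentraxin, and Nsf, which acts in receptor recycling, were the most abundant of the list at a mean of 1001 and 597 TPM and did not pass.

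**Figure D4:**
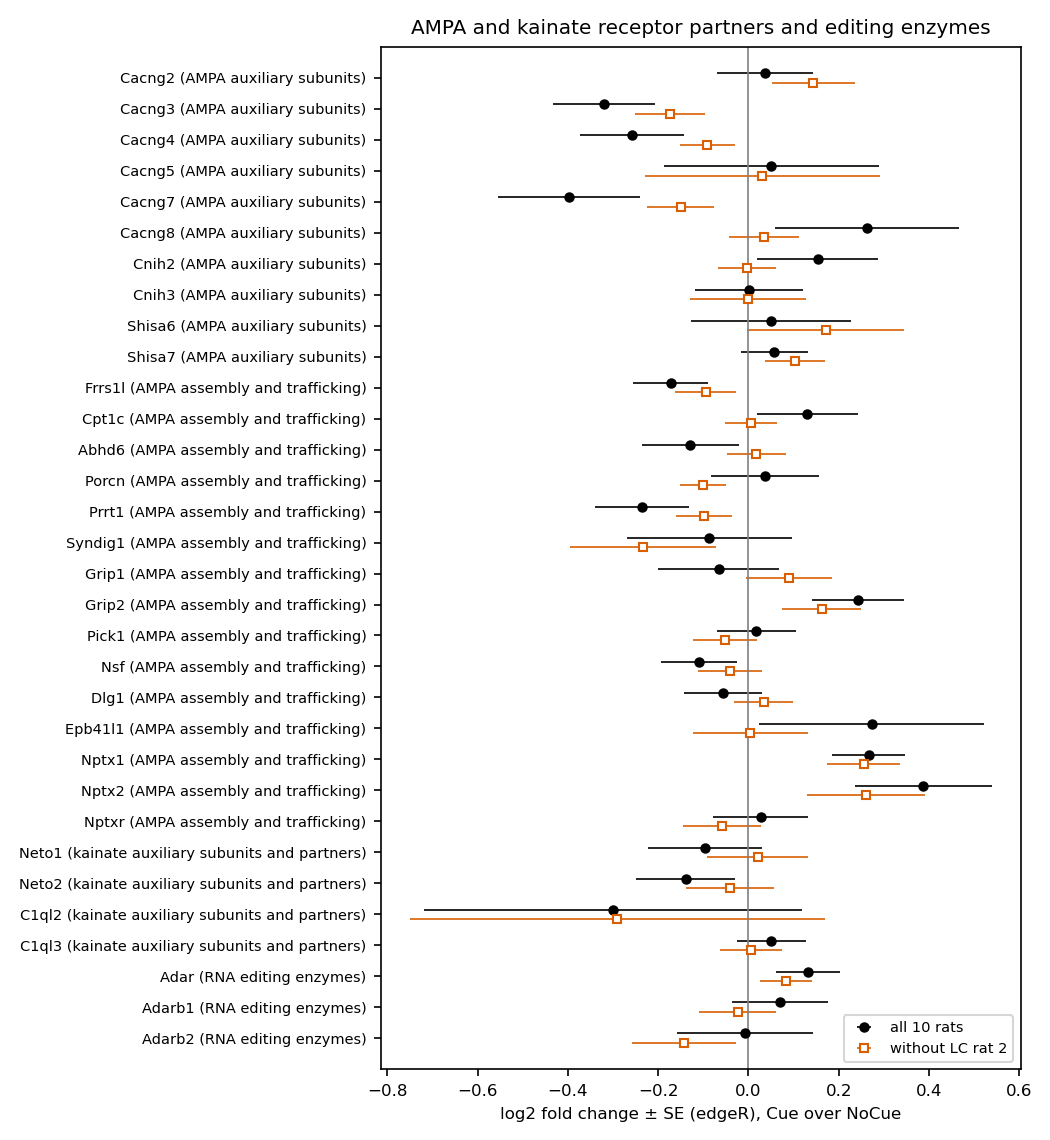
Log2 fold change of Cue over NoCue with SE for AMPA and kainate receptor partners and editing enzymes, black with all 10 rats and orange without LC rat 2. Nptx1 stays near 0.26, whereas Cacng4 and Cacng7 move towards 0 when LC rat 2 is left out.

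Of the 4 kainate receptor partners, 0 passed in either comparison. C1ql3, a secreted protein that binds at synapses, was the most abundant at a mean of 413 TPM and Neto1, an auxiliary subunit, had 42.4 TPM. Of the RNA editing enzymes Adar (75.0 TPM), Adarb1 (61.9 TPM), which edits Gria2, and Adarb2, 0 passed in either comparison.

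The Cue difference was set against phenotype in an interaction test. Grik5 passed an unadjusted p of 0.05 with -0.58 ± 0.26, HC minus LC rats (SE, adjusted p = 0.368, edgeR), as did 13.3% of the genes tested. No member passed without HC rat 10, HC rat 11, LC rat 12 or LC rat 13. LC rat 2, a NoCue rat, had 123 CPM of Grik5 against 214 to 267 CPM in the others. Without that rat 0 of 9 members passed, against 7.04% of genes, and without LC rat 4 it was 6 of 9, against 45% of genes. LC rat 2 was then the only LC NoCue rat, and it is assumed to vary like the rats of the other groups.

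LC rat 2 differed from the other rats in opposite ways within the kainate family. Its log2 CPM was 0.99 below the median of the other 9 rats for Grik5 and 0.73 below for Grik4, but 0.60 above for Grik2 and 0.83 above for Gria4. The median size of such a departure over all genes tested was 0.42. By TPM its Grik5 share was 42.8% and its AMPA to kainate ratio was 4.33, against 1.86 to 2.52 in the other rats.

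For Grik5, reads that span an exon junction gave another share in that rat. Of its 538 junction reads on kainate subunits, 68.4% fell on Grik5 (Wilson 95% interval 64.4% to 72.2%), within the 62.9% to 72.2% of the other rats. Its junction read share of Grik2 still lay outside the other rats, at 14.5% (11.8% to 17.7%) against 5.96% to 9.74%. The shares of Grik1 (4.28% against 2.01% to 3.43%) and Grik4 (6.69% against 7.83% to 11.5%) lay outside too. So did those of Gria3 (18.9% against 20.1% to 25.4%) and Gria4 (10.6% against 7.39% to 10.3%). The intervals of Grik1 (2.87% to 6.33%), Grik4 (4.87% to 9.12%), Gria3 (17.0% to 20.9%) and Gria4 (9.21% to 12.3%) reached into the ranges of the other rats. Of the 1273 exon reads of LC rat 2 on Grik5, 28.9% spanned a junction (26.5% to 31.5%), against 17.8% to 22.4% in the others. For Grik3 the order was the other way, at 5.82% in LC rat 2 against 9.92% to 14.5%. Over the exon reads of all genes it was 8.93% in LC rat 2, against 11.3% to 12.0% in the others. Gria2, Gria3 and Gria4 also lay below all other rats in this percentage, and Gria1 lay above them. The Gria4 interval (8.10% to 10.8%) reached past the lowest other rat at 9.78%. That of Gria1 (16.2% to 19.3%) reached the highest other rat at 16.3%, whereas those of Gria2 and Gria3 stayed below the other rats. Such intervals cover counting error only.

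The libraries were made from total RNA, and reads outside exons made up a large part of the reads of some members. For Grik1 they were 48.5% to 66.6% of gene reads and for Grik2 43.4% to 55.5%, against 12.6% to 17.3% for Gria2 and 13.4% to 26.9% for Grik5. For no member did the difference in this percentage between HC and LC rats or between Cue and NoCue rats pass the test, with exact permutation p of 0.12 or more.

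Over the 10 rats, the tested genes whose log2 CPM ranked most like each member were Inpp4b and Acsl4 for Gria1, Eif1a and Usp45 for Gria2, Zranb2 and Chordc1 for Gria3 and Leo1 and Rexo4 for Gria4. For the kainate subunits they were Slf1 and Rbm25l1 for Grik1, Prnp and Tmem255a for Grik2, Cntnap4 and Minpp1 for Grik3, Nkpd1 and Nhlrc1 for Grik4 and Strn4 and Fam163a for Grik5. The Spearman rho ran between 0.89 and 0.99. These genes were picked as the highest of 12203 compared over 10 rats, so high values follow from the choice. All genes also come from the same libraries, which differ in depth and include LC rat 2. Between members, the rho was 0.82 for Gria2 with Gria3 and -0.75 for Gria2 with Grik5, and 0.75 and -0.65 without LC rat 2.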

How the data were processed

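The authors made total RNA libraries from the mPFC of 10 rats with a stranded kit, sequenced single-end 50-base reads, and mapped them to the rat genome (Rnor_6.0) in CLC Genomics Workbench. The deposited tables give read counts per gene (exon, unique exon, gene, intron and exon-exon reads), TPM and RPKM by the authors; no source used here says if reads were assigned by strand. A deposited table of the authors' own HC against LC comparison (fold changes and p-values) was not used. RPKM was not tested.

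Exon read counts were tested in edgeR 4.0.16 (R 4.3.3) by the quasi-likelihood test with TMM scaling, filterByExpr (minimum count 10, total 15), and Benjamini-Hochberg adjustment over 14135 genes; this tool gave every adjusted p, with DESeq2 1.42.0 and limma 3.58.1 as alternatives. Models held phenotype, or phenotype and the Cue mark of the table names. Single values were tested by two-sided exact permutation. Log2 CPM used a prior count of 2. Scripts were tested on simulated data. No pair of libraries agreed within sampling noise (chi-square per gene at least 4.69). P-values measure the spread between rats.

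Members and lists were chosen with earlier results of these data known. Named were all members, partner genes at an unadjusted p under 0.05 or among the 2 most abundant of their list, and the 2 genes most like each member among those with a mean of at least 50 exon reads. Alternatives were other scalings, filters, tools, read types, pseudocounts and rats left out. The values of a gene of the partner lists, which stays in the counts, are not reported here.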

Additional observations from a re-analysis of the deposited data

Results flagged for a closer look

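Gria4 CPM in LC rat 2 was 171, with a gap to the next LC rat that was 0.854 of the range of the 5 LC rats, over the 0.71 that Dixon's test allows at 95%. The Grik2 share of kainate TPM in LC rat 2 was 23.2%, with a gap of 0.798 of the range. Of 40 groups examined 2 were singled out in this way, and chance singles out about 1 in 20. LC rat 2 is the library with 28.4% mitochondrial reads, and the part of that in both values was not tested.

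The Cue difference differed between HC and LC rats at an unadjusted p of 0.05 in edgeR's interaction test for 5 of the 43 members and partner genes (11.6%), each with an adjusted p of 0.368, against 13.3% of all genes tested. The interaction, HC minus LC rats, was -0.58 for Grik5, 0.40 for Prrt1, 0.56 for Grip1, -0.41 for Grip2 and -0.43 for Adarb1. Without LC rat 2, 0 members and 1 partner gene passed, against 7.04% of all genes.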

How the results depend on the processing

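No paired analysis was made because HC and LC rats are separate animals, grouped by their lever presses. Genes past an unadjusted p of 0.05 between HC and LC rats numbered 246, and 451 with no filter, 391 with the Cue mark as a second term, 423 among Cue rats and 591 among NoCue rats; partner genes that passed numbered 0, and 1, 2 and 1 under the last 3. Members that passed numbered 1 with total gene reads (Grik4, against 2.06% of all genes) for HC over LC, and for Cue over NoCue 1 with library size alone (Grik3, 8.7%), 1 in HC rats only (Grik3, with 2 partner genes, 6.78%) and 1 in LC rats only (Gria4, 14%). Library size alone moved the median of all genes to 0.10 on the log2 scale in both comparisons. HC over LC turned direction among Cue rats only (0.15 for Gria1, 0.034 for Gria2, 0.035 for Gria3, 0.048 for Gria4, 0.14 for Grik1, 0.070 for Grik2 and -0.0081 for Grik5), among NoCue rats only (-0.22 for Grik3), with total gene reads (0.042 for Gria1), with library size alone (0.10 for Gria1 and 0.074 for Grik1) and with LC rats 2 and 4 left out (0.083 for Gria1, 0.00065 for Gria3, 0.039 for Gria4, 0.078 for Grik1 and 0.046 for Grik2). Cue over NoCue turned with library size alone (0.082 for Gria1, 0.050 for Gria2, 0.0078 for Gria3 and 0.054 for Grik1) and in HC rats only (0.16 for Gria1, 0.16 for Gria2, 0.084 for Gria3, 0.020 for Gria4, 0.16 for Grik1, 0.061 for Grik2, -0.079 for Grik4 and -0.032 for Grik5). On the log2(TPM + 0.1) scale HC minus LC was 0.22 for Gria1, 0.073 for Gria2, 0.11 for Gria3, 0.056 for Gria4, 0.19 for Grik1 and 0.11 for Grik2, and Cue minus NoCue was 0.21 for Gria1, 0.18 for Gria2, 0.14 for Gria3, 0.00066 for Gria4, 0.18 for Grik1 and 0.071 for Grik2, with Grik3 at 0.59 and Grik5 at 0.54 now past the exact permutation threshold. On the log2(TPM + 1) scale HC minus LC was 0.21 for Gria1, 0.073 for Gria2, 0.11 for Gria3, 0.055 for Gria4, 0.17 for Grik1 and 0.11 for Grik2, and Cue minus NoCue was 0.21 for Gria1, 0.18 for Gria2, 0.14 for Gria3, 0.00077 for Gria4, 0.16 for Grik1 and 0.069 for Grik2, with Grik3 at 0.57 and Grik5 at 0.53. With LC rats 2 and 4 left out the shares turned, HC minus LC, to 0.079 for Gria4, 0.11 for Grik1, 0.14 for Grik2, 0.58 for Grik3 and -1.52 for Grik5 percentage points, and the log2 ratio of Grik4 and Grik5 to Grik1 to Grik3 to -0.060. With junction reads, chosen after seeing the data, the shares turned to 1.09 for Gria3, 1.09 for Grik3 and -1.25 for Grik5 points for HC minus LC and -1.32 for Gria1, 0.79 for Gria3, 0.76 for Grik4 and -2.98 for Grik5 points for Cue minus NoCue, and for Cue minus NoCue the log2 Gria1 to Gria2 ratio turned to -0.13 and that of Grik4 and Grik5 to the other 3 to -0.19. With each rat left out in turn the genes past p of 0.05 ran 154 to 634 for HC over LC, 888 to 2338 for Cue over NoCue and 678 to 6434 for the interaction, the last with 4977 genes at an adjusted p of 0.05 without LC rat 4. Members that passed ran 0 to 1 for Cue over NoCue and 0 to 6 for the interaction, and partner genes 0 to 2 for HC over LC and 2 to 8 for Cue over NoCue. The fold changes that crossed 0 in this way ran -0.076 to 0.039 for Gria1, -0.20 to 0.019 for Gria3, -0.27 to 0.014 for Gria4, -0.11 to 0.025 for Grik1 and -0.22 to 0.016 for Grik2 for HC over LC, and -0.10 to 0.031 for Gria1, -0.20 to 0.064 for Gria2, -0.21 to 0.081 for Gria3, -0.16 to 0.011 for Grik1 and -0.057 to 0.18 for Grik4 for Cue over NoCue. The log2 CPM differences ran -0.080 to 0.040 for Gria1, -0.18 to 0.022 for Gria3, -0.23 to 0.0095 for Gria4, -0.11 to 0.030 for Grik1 and -0.20 to 0.021 for Grik2 for HC minus LC, and -0.079 to 0.016 for Gria1, -0.17 to 0.042 for Gria2, -0.29 to 0.069 for Gria3, -0.13 to 0.0016 for Grik1 and -0.053 to 0.29 for Grik4 for Cue minus NoCue. The shares ran -1.01 to 0.41 for Gria3, -0.61 to 0.049 for Gria4, -1.45 to 0.81 for Grik3 and -0.61 to 5.15 for Grik5 points for HC minus LC, and -0.77 to 2.45 for Gria1, -1.15 to 2.08 for Gria2, -1.81 to 0.93 for Gria3, -0.23 to 2.82 for Grik3, -1.12 to 0.055 for Grik4 and -0.25 to 7.63 for Grik5 points for Cue minus NoCue. The log2 ratios ran -0.10 to 0.16 for Gria1 to Gria2, Cue minus NoCue, -0.014 to 0.38 for Grik4 and Grik5 to Grik1 to Grik3, HC minus LC and -0.10 to 0.46 for Grik4 and Grik5 to Grik1 to Grik3, Cue minus NoCue. Grik4 kept its direction for HC over LC in every setting tried; for the other turns the cause was not tested. Depth limits Grik1 most, with 122 to 259 exon reads per rat.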
